A study of Macaca mulatta with 20 samples.

Results

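The genes described here are 10 members of the tumor necrosis factor (TNF) and NF-kB pathway, measured in whole blood of rhesus macaques before and after irradiation of the thorax. They are the ligand TNF, its receptors TNFRSF1A and TNFRSF1B, the kinase gene IKBKB, the inhibitor genes NFKBIA and TNFAIP3, and the Rel family genes NFKB1, NFKB2, RELA and RELB. They were chosen by name, and a probe was kept if it was well above background on at least 5 of the 20 arrays. All 13 probes that the array holds for these genes passed, each on all 20 arrays, among 19961 probes that passed of 34127 on the array, which carry 15929 and 25992 gene names. TNFRSF1B, IKBKB and RELA have 2 probes each, called probe 1 and probe 2 in order of signal, and the other 7 genes have 1.

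TNF is a cytokine of activated monocytes, macrophages and lymphocytes, and it acts through the receptors TNFR1 and TNFR2. Bound receptors recruit adaptor proteins that switch on the IkB kinase complex, which marks IkB proteins for destruction and so frees Rel protein dimers to enter the nucleus. Among the genes these dimers switch on are NFKBIA and TNFAIP3, whose products shut the pathway down again. Much of this control acts on proteins, which were not measured.

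The arrays fall into 4 groups of 5, labeled as pre-irradiation or as day 2, 5 or 30 after it, with replicates numbered 1 to 5 in each. All animals were male macaques, and all 15 arrays of the later days follow a dose of 10 Gy of X-rays to the whole thorax, while the pre-irradiation arrays hold blood drawn before that dose. Per the study's methods the animals got no radiation mitigator, antibiotic or steroid, but a non-steroidal anti-inflammatory drug and an opioid were given where needed, and 1 RNA sample was pooled from 2 animals without the labels saying which. There were no unirradiated animals at the later days, so that time and irradiation cannot be told apart. RNA depleted of globin transcripts was labeled in 1 color and hybridized to Agilent whole human genome arrays, whose probes of 60 bases were designed on human transcripts. A mismatch between a human probe and the macaque transcript could lower its signal, so levels are compared between arrays for 1 probe and not between probes. A level here is the log2 processed signal minus the 75th percentile of its array, so that 0 is the signal of the 75th percentile and 1 unit is a doubling.

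Each later day was set against pre-irradiation in limma, paired by replicate number, over all 19961 probes. A call needed a p-value below 0.005 and a false discovery rate (FDR, Benjamini-Hochberg) below 10%. None of the 13 probes was called on any day. The smallest adjusted p-value of limma among them was 0.216 at day 2, 0.446 at day 5 and 0.205 at day 30. The same thresholds called 0.0601% of all probes at day 2, and 0 probes at days 5 and 30. An unadjusted limma p-value under 0.05, which is used below to describe and not to call, was found for 2 of the 13 probes at day 2, 0 at day 5 and 3 at day 30. In all probes its share was 15% at day 2, 11.2% at day 5 and 17.5% at day 30, so that the counts of 2, 0 and 3 lie near those shares. Without the pairing the member counts were 1, 0 and 1. The count at day 2 was 1 without replicate 4, and that at day 30 was 0 without replicate 5.

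At this unadjusted level, the probes were those of both TNF receptors at day 2, with higher levels, and those of NFKBIA and TNF with higher and NFKB2 with lower levels at day 30. All 3 comparisons use the 5 pre-irradiation arrays, and a chance deviation of these arrays enters each of them. In whole blood, fewer cells of a type and less RNA per cell cannot be told apart. With the normexp background correction in place of the scanner software's, the day 2 differences shrank from 0.72 to 0.38 for TNFRSF1A and from 0.54 to 0.34 for TNFRSF1B probe 1, and the day 30 difference of TNF from 0.47 to 0.29, while that of NFKBIA at day 30 was 0.65 in place of 0.83.

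**Figure D1:**
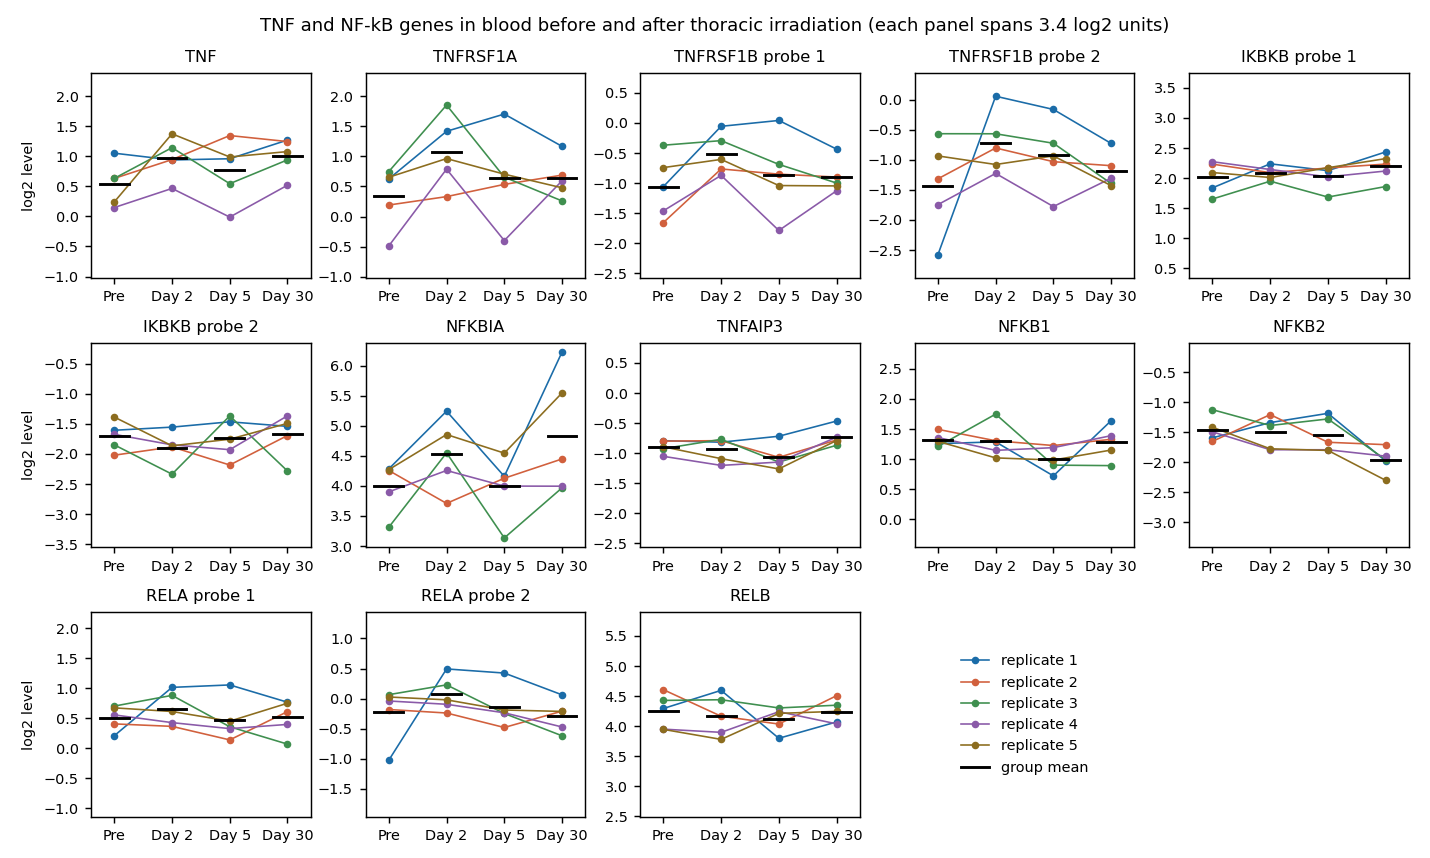
Level of each of the 13 probes (log2 processed signal minus the 75th percentile of the array) in the 4 groups, with 1 colored line for each replicate number and a black bar at the mean of 5 arrays. TNFRSF1A lies above its pre-irradiation level at day 2 in all 5 replicates, NFKBIA spreads most at day 30 (from 3.97 to 6.23), and all 5 day 30 levels of NFKB2 lie below its pre-irradiation levels.

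TNF encodes the ligand itself. Its probe lies at chr6:31545837-31545896 of the human build hg19. The pre-irradiation levels of TNF were 1.05, 0.63, 0.63, 0.15 and 0.24 for replicates 1 to 5. At day 2 they were 0.94, 0.95, 1.14, 0.47 and 1.37, and at day 5 they were 0.96, 1.34, 0.54, -0.01 and 0.99. At day 30 they were 1.27, 1.24, 0.94, 0.52 and 1.08. Replicate 4 was the lowest array of TNF in every group, and the groups overlapped at each day. The mean level went from 0.54 ± 0.36 (SD, n = 5) before irradiation to 0.97 ± 0.34 at day 2, 0.77 ± 0.52 at day 5 and 1.01 ± 0.31 at day 30. At day 30 the level was higher in 5 of 5 pairs, by 0.47 on average (SE 0.17), which is 1.38-fold with a 95% interval from 1.05 to 1.82 (limma adjusted p = 0.227). At day 2 it was higher in 4 of 5 pairs by 0.43 (SE 0.20, limma adjusted p = 0.352), with 0.26 when replicate 5 was left out and 0.24 with normexp. The day 2 and day 30 levels of TNF differed by 0.04, with an interval from -0.33 to 0.40.

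TNFRSF1A encodes TNFR1, the receptor with a death domain that most cell types carry. Its probe lies at chr12:6438064-6438123 (hg19) and is spotted 10 times on each array. Before irradiation TNFRSF1A had levels of 0.63, 0.19, 0.75, -0.49 and 0.65 in replicates 1 to 5. At day 2 the levels were 1.42, 0.33, 1.85, 0.79 and 0.96, at day 5 they were 1.7, 0.53, 0.66, -0.40 and 0.70, and at day 30 they were 1.17, 0.69, 0.26, 0.59 and 0.48. The day 2 level exceeded the pre-irradiation level in each pair, by 0.14 in replicate 2 and by up to 1.28 in replicate 4, although the groups overlapped. The mean difference at day 2 was 0.72 (SE 0.21), or 1.65-fold with a 95% interval from 1.19 to 2.30, the smallest p-value of any of the 13 probes against pre-irradiation (limma adjusted p = 0.216). At day 5 and day 30 the mean differences of TNFRSF1A were both 0.29, in 4 and 3 of 5 pairs, with limma adjusted p-values of 0.606 and 0.567.

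TNFRSF1B encodes TNFR2, a receptor without a death domain that is found mainly on leukocytes. Probe 1 lies at chr1:12268275-12268334 and probe 2 at chr1:12252992-12253051 (hg19), so that the probes sample the transcript far apart. On the human transcript record probe 2 starts at base 712 and probe 1 at base 2672. The sequence of probe 2 is shown, 5′ to 3′ as deposited and with no part capitalized, because this probe departs from probe 1 on 1 array.
TNFRSF1B probe 2: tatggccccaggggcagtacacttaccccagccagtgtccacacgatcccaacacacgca
The 5 pre-irradiation levels of TNFRSF1B probe 1 were -1.06, -1.66, -0.37, -1.46 and -0.74, and those at day 2 were -0.06, -0.77, -0.29, -0.87 and -0.61. Probe 1 was higher in 5 of 5 pairs at day 2, by 0.54 on average (SE 0.19), or 1.45-fold with an interval from 1.07 to 1.97 (limma adjusted p = 0.264). At day 5 it had levels of 0.04, -0.85, -0.69, -1.79 and -1.04, and at day 30 of -0.44, -0.90, -1.0, -1.13 and -1.05. Replicates 2 and 1 gained most at day 2, and the groups overlapped at every day. From day 2 to day 30 both probes of TNFRSF1B had lower levels in 5 of 5 pairs, by 0.38 for probe 1 and 0.47 for probe 2 on average (SE 0.14 and 0.16, limma adjusted p = 0.363 for both).

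TNFRSF1B probe 2 gave levels of -2.58, -1.32, -0.57, -1.75 and -0.93 before irradiation and of 0.06, -0.80, -0.57, -1.23 and -1.08 at day 2. Its mean difference at day 2 was 0.70 (SE 0.38, limma adjusted p = 0.42), in 3 of 5 pairs. The value of replicate 1 alone was 2.64, and this replicate had both the lowest pre-irradiation level and the highest day 2 level of probe 2. Without replicate 1 the mean difference of probe 2 at day 2 was 0.22 (limma adjusted p = 0.70), and with normexp it was 0.41. On that pre-irradiation array probe 1 exceeded probe 2 by 1.52, whereas on the other 19 arrays the probes differed by -0.34 to 0.47. The same array was the lowest of its group in 21.0% of all tested probes, beside 16.1% to 21.9% for the other pre-irradiation arrays. Its share of spots well above background, 50.9%, was the lowest of the 20 arrays, beside 55.4% to 58.7% for the other pre-irradiation arrays.

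IKBKB encodes IKK-beta, the kinase that phosphorylates IkB proteins. The level of IKBKB probe 1 ranged from 1.65 to 2.27 before irradiation, from 1.95 to 2.24 at day 2, from 1.68 to 2.17 at day 5 and from 1.86 to 2.43 at day 30. The level of probe 2 ranged from -2.02 to -1.39, -2.34 to -1.55, -2.18 to -1.37 and -2.28 to -1.37 in the same order. The groups overlapped for both probes on each day, and the largest mean difference from pre-irradiation was -0.19 (probe 2 at day 2, SE 0.16, limma adjusted p = 0.595). At day 30 the 95% interval of probe 1 ran from 0.85-fold to 1.5-fold, and that of probe 2 from 0.77-fold to 1.36-fold. The probes were designed on different human transcripts of IKBKB, and at day 2 their mean differences had opposite signs (0.07 and -0.19).

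NFKBIA encodes IkB-alpha, which holds Rel dimers in the cytoplasm and is itself a target of NF-kB. Its probe lies at chr14:35870788-35870847 (hg19) with 10 spots per array. NFKBIA had pre-irradiation levels of 4.28, 4.26, 3.31, 3.90 and 4.27 in replicates 1 to 5. At day 30 its levels were 6.23, 4.45, 3.97, 3.99 and 5.55. Replicates 1 and 5 lay above all other arrays of NFKBIA, and the remaining 3, from 3.97 to 4.45, lay within the pre-irradiation range or just above it. The mean difference at day 30 was 0.83 (SE 0.28), or 1.78-fold with an interval from 1.13 to 2.79, and it was above 0 in 5 of 5 pairs, from 0.09 in replicate 4 to 1.94 in replicate 1 (limma adjusted p = 0.205). Without replicate 1 it was 0.55.

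At day 2 NFKBIA had levels of 5.24, 3.71, 4.55, 4.26 and 4.85, and at day 5 of 4.16, 4.13, 3.13, 4.00 and 4.54. The day 2 difference was 0.52 (SE 0.26, limma adjusted p = 0.387), with 4 of 5 pairs higher and replicate 2 lower by 0.55, and it was 0.02 with normexp, 0.34 without replicate 3 and 0.78 without replicate 2. At day 5 the mean, 3.99 ± 0.52 (SD, n = 5), lay within 0.02 of the pre-irradiation mean of 4.00 ± 0.42, and the 95% interval ran from 0.79-fold to 1.25-fold. Day 30 exceeded day 5 by 0.84 (SE 0.29, limma adjusted p = 0.561), and in that comparison 8.48% of all probes had a p-value under 0.05.

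TNFAIP3 encodes A20, an enzyme that edits ubiquitin chains and ends TNF signaling. Its level stayed within a narrow band, from -1.05 to -0.79 before irradiation, from -1.20 to -0.77 at day 2, from -1.26 to -0.72 at day 5 and from -0.87 to -0.47 at day 30. Day 30 was higher than pre-irradiation in 5 of 5 pairs, but by 0.02 to 0.33, and the mean difference of 0.16 (SE 0.16) was about the size of its error (limma adjusted p = 0.624). Against day 5, the day 30 level of TNFAIP3 was higher by 0.34, again in 5 of 5 pairs (SE 0.16, limma adjusted p = 0.601).

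NFKB1 encodes p105, the precursor of the p50 subunit. The pre-irradiation levels of NFKB1 were 1.26, 1.49, 1.21, 1.36 and 1.29. Day 5 levels were 0.72, 1.23, 0.90, 1.19 and 0.98, below the pre-irradiation level in 5 of 5 pairs, with an overlap of replicate 2 at day 5 with replicate 3 before irradiation. The day 5 difference was -0.32 (SE 0.14), or 0.80-fold with an interval from 0.64 to 1.0 (limma adjusted p = 0.446). At days 2 and 30 the levels ranged from 1.02 to 1.75 and from 0.89 to 1.64, with mean differences of -0.02 and -0.04.

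NFKB2 encodes p100, the precursor of the p52 subunit in the non-canonical arm of the pathway. Its probe, with 10 spots per array, covers chr10:104161053-104161229 (hg19), a stretch of 177 bases and so wider than the probe. It is shown, 5′ to 3′ with no part capitalized, as the probe whose day 30 and pre-irradiation levels did not overlap.
NFKB2: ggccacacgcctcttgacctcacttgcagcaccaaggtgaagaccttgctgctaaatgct
The pre-irradiation levels of NFKB2 were -1.59, -1.65, -1.13, -1.49 and -1.42, and those at day 30 were -1.98, -1.71, -1.96, -1.90 and -2.30. Every day 30 array lay below every pre-irradiation array, which held for 1 of the 13 probes and for 2.04% of all probes in either direction. The mean difference was -0.51 (SE 0.19), or 0.70-fold with an interval from 0.52 to 0.94, and the pairs ranged from -0.88 to -0.05 (limma adjusted p = 0.225).

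Day 2 levels of NFKB2 were -1.34, -1.21, -1.39, -1.79 and -1.78, and day 5 levels were -1.19, -1.67, -1.28, -1.79 and -1.80. Both overlapped the pre-irradiation levels, with mean differences of -0.04 and -0.09. NFKB2 at day 30 was also lower than at day 2, in 5 of 5 pairs and by 0.47 (SE 0.14, limma adjusted p = 0.363), where 12.8% of all probes had a p-value under 0.05. Against day 5 it was lower in 5 of 5 pairs (-0.42, SE 0.19, limma adjusted p = 0.594). With the normexp method in place of the processed signal, the day 30 difference of NFKB2 from pre-irradiation was -0.12 (limma adjusted p = 0.636).

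RELA encodes p65, the subunit that carries the transactivation domain of the canonical dimer. RELA probe 1 lies at chr11:65421651-65421710 and probe 2 at chr11:65421986-65422045 (hg19), close to each other at the end of the gene. The sequence of probe 2 is given, 5′ to 3′ with no part capitalized, since the 2 probes of RELA disagree in the same array as those of TNFRSF1B.
RELA probe 2: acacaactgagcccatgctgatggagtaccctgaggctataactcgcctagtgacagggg
RELA probe 1 had levels of 0.21, 0.41, 0.70, 0.56 and 0.67 before irradiation, and its means were 0.51 ± 0.20 (SD, n = 5), 0.66 ± 0.28 at day 2, 0.47 ± 0.35 at day 5 and 0.52 ± 0.29 at day 30. RELA probe 2 gave -1.02, -0.18, 0.07, -0.04 and 0.03 before irradiation, with means of -0.23 ± 0.45, 0.07 ± 0.29, -0.15 ± 0.34 and -0.29 ± 0.26 at the 4 times. The groups of both probes overlapped at every day, and the smallest limma adjusted p-value of probe 2 against pre-irradiation was 0.591, at day 2. Without replicate 1, the mean difference of probe 2 at day 2 went from 0.30 to 0.0005 and that at day 30 from -0.06 to -0.35 (limma adjusted p = 0.432 for the latter).

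The difference between the 2 probes of RELA was 1.23 on the pre-irradiation array of replicate 1. On the other 14 arrays up to day 5 it lay between 0.52 and 0.65, and on the 5 day 30 arrays it lay between 0.69 and 0.96. All day 30 arrays thus lay above all earlier arrays but 1. This difference was looked at after the values were seen and was not tested.

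**Figure D2:**
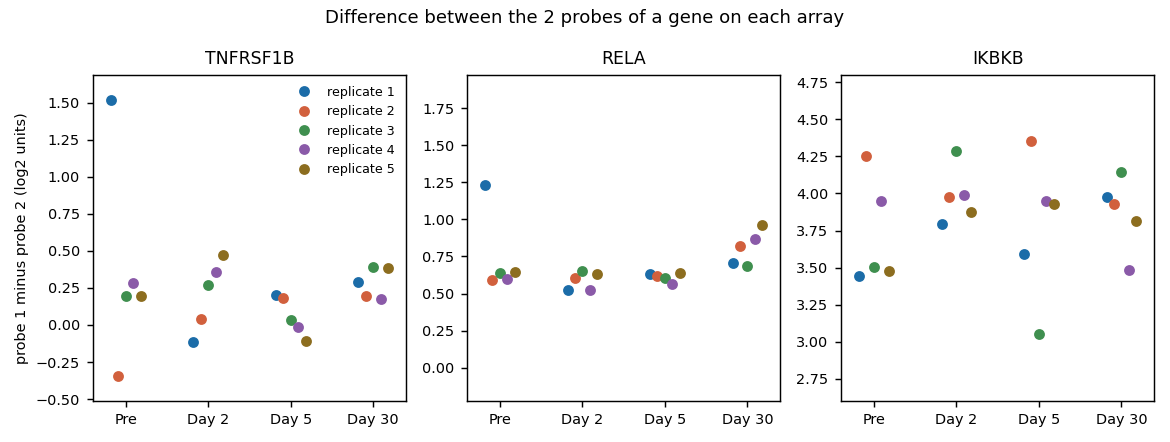
Level of probe 1 minus level of probe 2 (log2 units) on each array for the 3 genes with 2 probes, by group, with points colored by replicate number; the offset between 2 probes has no meaning of its own, and each panel spans the same range. The pre-irradiation array of replicate 1 stands apart for TNFRSF1B (1.52) and RELA (1.23), and the probes of IKBKB differ by 3.05 to 4.35.

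RELB encodes the partner of p52 in the non-canonical dimer. Its levels ranged from 3.95 to 4.61 before irradiation, from 3.78 to 4.60 at day 2, from 3.80 to 4.30 at day 5 and from 4.04 to 4.51 at day 30. The mean differences were -0.07, -0.13 and -0.003, with limma adjusted p-values from 0.819 to 0.994, and the 95% interval at day 30 ran from 0.77-fold to 1.30-fold. With normexp the day 2 difference of RELB was -0.55 in place of -0.07, with an unadjusted p-value under 0.05.

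**Figure D3:**
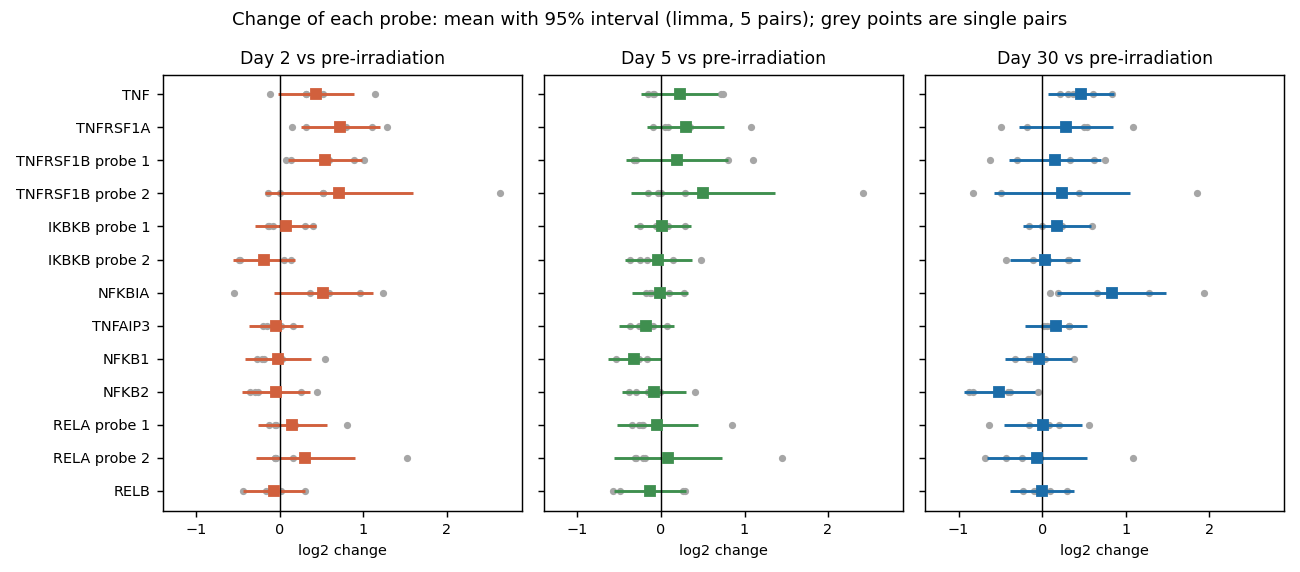
Mean log2 change of each probe from pre-irradiation at day 2, day 5 and day 30 (squares) with the 95% interval of limma (lines) and the 5 single pairs (grey points). Intervals lie to the right of 0 for TNFRSF1A and TNFRSF1B probe 1 at day 2 and for TNF and NFKBIA at day 30, and to the left of 0 for NFKB2 at day 30, all before adjustment for 19961 probes.

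Standard errors of the members over the 3 days against pre-irradiation ran from 0.14 to 0.38. The 95% interval lay within a 2-fold change in both directions for 10 of the 13 probes at day 2, 12 at day 5 and 11 at day 30. The median difference of the 13 probes was 0.15 at day 2, -0.01 at day 5 and 0.16 at day 30, beside -0.04, 0.03 and -0.02 for all probes. Between day 2 and day 5, 12 of the 13 probes had a lower mean at day 5, against 40.3% of all probes, but none had a p-value under 0.05 (3.56% of all probes did), and RELA probe 2 was the one that was lower in 5 of 5 pairs. The pairs differed in how many members were higher. Taking 1 probe a gene, 9 of the 10 genes were higher at day 2 in replicate 3 and 8 in replicate 1, but 5, 4 and 4 in replicates 2, 4 and 5. The median difference of all probes at day 2 was -0.09, 0.03, -0.04, -0.03 and -0.08 in replicates 1 to 5. Genes of 1 pair come from the same 2 arrays and are not separate observations.

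For the 5 probes with 10 spots on each array, the spread of the spots separates error within an array from that between arrays. The median SD of the spots of an array was 0.04 to 0.09 log2 units. The SD between arrays of a group was 2.85 times (NFKB2) to 10.3 times (NFKBIA) as large. No array had a saturated spot for any of the 13 probes. Slides hold 4 arrays each, 1 of every group, and most arrays of 1 replicate number lie on different slides. The exceptions are replicate 2 (pre-irradiation and day 5), replicate 3 (day 2 and day 30) and replicate 5 (day 5 and day 30), each with those arrays on 1 slide. Within slides, TNF was higher at day 30 on 4 of 5 and NFKBIA on 3 of 5, and TNFRSF1A was higher at day 2 on 4 of 5. NFKB2 was lower at day 30 on 5 of 5 slides (-0.85 to -0.11). For NFKB2 any matching of the arrays gives 5 of 5, because the 2 groups do not overlap, so this count adds nothing. With slide added to a fit of all 20 arrays, the limma adjusted p-values were 0.207 for NFKB2, 0.238 for TNF and 0.222 for NFKBIA at day 30 and 0.295 for TNFRSF1A at day 2.

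Marker genes of blood cells moved over the same arrays. Of 9 neutrophil markers tested, 6 were higher at day 2, 7 at day 5 and 6 at day 30 with a p-value under 0.05. Their summed level (in multiples of the 75th percentile of the array) was 117 to 411 before irradiation, 292 to 918 at day 2, 233 to 715 at day 5 and 339 to 1070 at day 30. Of 7 monocyte markers, 4, 2 and 4 were higher on these days, with sums of 79.6 to 226 before irradiation and of 150 to 301, 81.3 to 262 and 151 to 312 after it. Of 11 T and NK cell markers, 9 were lower at day 2, 3 were lower at day 5, and 2 were lower and 2 higher at day 30, with sums of 157 to 224, 106 to 153, 87.1 to 259 and 102 to 208 at the 4 times. B cell markers were lower for 4 of 5 at day 2, 4 of 5 at day 5 and 3 of 5 at day 30, and their sums were 62.2 to 117, 39.1 to 76.6, 52.4 to 69.0 and 41.4 to 91.6. All 7 platelet markers were higher at day 2, 2 at day 5 and none at day 30 (sums of 30.8 to 114, 119 to 429, 69.3 to 179 and 55.1 to 85.9). Of the 7 erythroid markers 2 were lower at day 30 and none had a p-value under 0.05 at days 2 and 5.

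Interferon response genes differed between the pairs, and replicates 1 and 2 stood apart at day 2. All 8 had a mean difference above 0 at day 2 (median 1.31), but none had a p-value under 0.05 on any of the 3 days. The median difference of the 8 genes at day 2 was 4.77 in replicate 1 and 2.91 in replicate 2, beside -0.52, -1.01 and 0.48 in replicates 3, 4 and 5. Their summed level was 10.5 to 83.6 before irradiation, 8.35 to 648 at day 2, 18.4 to 77.7 at day 5 and 9.33 to 80.1 at day 30. TNFRSF1B probe 1 also gained most in replicates 1 and 2 at day 2. It was higher by 0.59 in replicate 4 too, where the median of the interferon response genes was -1.01. In replicates 3 and 5 it was higher by 0.08 and 0.14. Its mean difference at day 2 was 0.42 without replicate 1 and 0.45 without replicate 2, in place of 0.54. The monocyte markers had median differences at day 2 of 0.88, 0.47, 0.20, 1.03 and 0.34 in replicates 1 to 5. These were lowest in replicates 3 and 5 as well, but highest in replicate 4. The neutrophil markers had median differences at day 2 of 0.59, 0.12, 2.09, 1.38 and 0.49 in replicates 1 to 5. Those of TNFRSF1A in the same order were 0.79, 0.14, 1.11, 1.28 and 0.31. The part of these marker shifts in the levels of the TNF receptors, TNF, NFKBIA, NFKB1 and NFKB2 and of the pathway genes named below was not tested. The neutrophil marker FCGR3B and the monocyte marker LYZ were not found on the array by these names, and the B cell markers MS4A1 and PAX5 did not pass the filter.

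Other genes of the pathway were taken from 5 lists by role, with 1 probe a gene, the brightest. The lists were written with earlier results of these data known, so the counts describe these genes and test nothing. Of 116 genes, 97 were tested and none was called on any day. At day 2, 27 of the 97 (27.8%) had a p-value under 0.05, 22 higher and 5 lower, beside 15% of all probes. At day 5 there were 15 (15.5%), 7 higher and 8 lower, beside 11.2% of all probes. At day 30 there were 19 (19.6%), 13 higher and 6 lower, beside 17.5%. The counts of each day were lower without the replicate block, as given in the closing section. The median difference of the 97 genes was 0.18, 0.05 and 0.17. The genes named below are those with the largest differences at a p-value under 0.05 and 1 direction in all pairs, at most 4 per list and day. Others with a p-value under 0.05 are added by name after their values were seen.

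Of 26 NF-kB target genes tested, 11 were higher and 1 was lower at day 2, 3 were higher and 3 lower at day 5, and 4 were higher and 1 lower at day 30. At day 2 CXCL2, a chemokine that draws neutrophils, was higher by 1.23 (SE 0.19, limma adjusted p = 0.131), although it was well above background on 3 of 5 pre-irradiation arrays. JUNB, a subunit of the AP-1 factor, was higher by 0.95 (SE 0.20, adjusted p = 0.166 from limma), and PTGS2, the inducible cyclooxygenase, by 0.98 (SE 0.32, adjusted p = 0.25). IL1RN, the natural antagonist of the interleukin 1 receptor, was higher by 1.39 (SE 0.53, adjusted p = 0.291), with pairs from 0.11 to 4.18. The other target genes with higher levels at day 2 were TNFAIP6 (1.32), BCL2A1 (1.13), SOD2 (1.12), IL1B (0.86), PTX3 (0.82), GADD45B (0.70) and IRF1 (0.45), and CD40 was lower by 0.48. CXCL2 (0.93) and JUNB (0.60) were also higher in 5 of 5 pairs at day 5, as was BCL2A1 (0.77), a survival gene of the BCL2 family, while CD40 was lower by 0.40, CCL3 by 0.62 and CD83 by 0.50. BCL2A1 and PTGS2 were higher at day 30 by 1.35 and 1.01 (adjusted p = 0.158 and 0.147 from limma), and LTA, which encodes lymphotoxin alpha, was lower by 0.47 with signals well above background on 2 of 5 day 30 arrays. TNFAIP6 (0.87) and IL1RN (0.66) were higher at day 30 in 4 of 5 pairs. Among target genes of this list that did not pass the filter were CXCL8, IL6, IL1A, CCL2 and CCL20, so that several classical cytokine targets gave no value.

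Of 27 other ligands and receptors of the TNF superfamily, 8 were higher and 3 lower at day 2, 3 higher and 4 lower at day 5, and 5 higher and 4 lower at day 30. FASLG, the death ligand of cytotoxic T and NK cells, was lower at day 2 by 1.57 (SE 0.22, limma adjusted p = 0.131). Its pairs ranged from -2.38 to -1.03. Higher at day 2 in 5 of 5 pairs were TNFRSF10C, a decoy receptor for TRAIL (1.24), TNFSF13B, the B cell survival factor BAFF (0.88), and LTBR, the lymphotoxin beta receptor of the non-canonical arm (0.83). TNFRSF10B (1.02), TNFRSF21 (0.72), TNFSF13 (0.68), FAS (0.59) and TNFSF14 (0.53) completed the 8 with higher levels, and TNFRSF13C, the BAFF receptor of B cells, and CD27 were lower by 0.69 and 0.58. At day 5 LTBR was higher by 0.76 and TNFRSF10B, a death receptor for TRAIL, by 0.84, the latter with signals well above background on 1 pre-irradiation and 3 day 5 arrays. The T cell genes CD27 and CD40LG were lower at day 5 by 0.56 and 0.37 in 5 of 5 pairs, and TNFRSF13C by 0.69 and FASLG by 0.62 in 4 of 5, while TNFRSF21 was higher by 0.46. CD27 was also lower at day 30 (-0.44), as was TNFRSF18, a receptor of regulatory and activated T cells (-0.91). The day 30 and pre-irradiation levels of TNFRSF18 did not overlap, which held for 2.04% of all probes in either direction. TNFSF4, the ligand of OX40, was higher at day 30 by 0.84 in 5 of 5 pairs. It was well above background on 3 of 5 pre-irradiation arrays. The remaining genes at day 30 were TNFRSF8 (0.99), TNFRSF21 (0.57), TNFRSF10D (0.56) and TNFSF13B (0.53) with higher levels, and CD40LG (-0.65) and TNFRSF4 (-0.53) with lower ones.

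**Figure D4:**
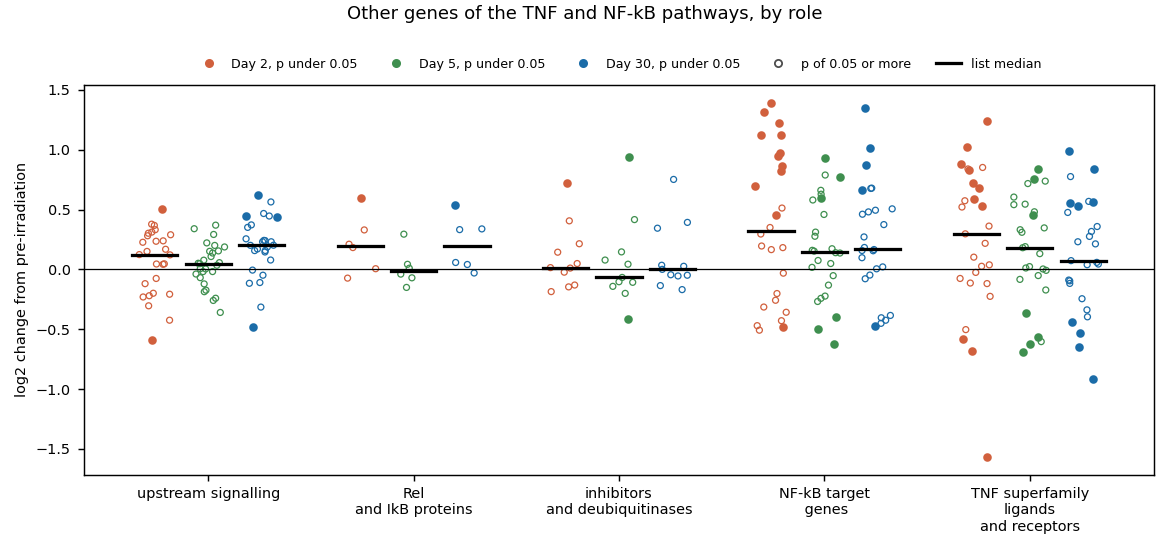
Log2 change from pre-irradiation of the 97 tested genes outside the 10 members, in 5 lists by role, at day 2 (orange), day 5 (green) and day 30 (blue), with filled points at an unadjusted p-value under 0.05 and a bar at the list median. Filled points above 0 at day 2 are most frequent among NF-kB target genes (11 of 26) and the TNF superfamily (8 of 27), and FASLG is the lowest point at -1.57.

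Counts in the remaining 3 lists are read against the shares of all probes given above (15%, 11.2% and 17.5% at days 2, 5 and 30). Of 27 upstream signaling genes, 1 was higher and 1 lower at day 2 (RBCK1, a subunit of the linear ubiquitin ligase, by 0.50 and TRAF5, a receptor adaptor, by -0.59), none had a p-value under 0.05 at day 5, and 3 were higher and 1 lower at day 30. Among the latter, RIPK2, a kinase of bacterial sensing, was higher by 0.62 in 4 of 5 pairs, the kinase gene TBK1 by 0.45 and TAB3 by 0.44, and TAB1 was lower by 0.48. TAB1 and TAB3 encode adaptors of the kinase TAK1. Of 6 other Rel and IkB genes, NFKBIZ, an inducible nuclear IkB protein, was higher in 5 of 5 pairs at day 2 (0.60, limma adjusted p = 0.252) and at day 30 (0.54, adjusted p = 0.223). Of 11 inhibitors and deubiquitinases, RNF11, a partner of A20, was higher by 0.72 at day 2 and 0.94 at day 5 (limma adjusted p = 0.196 and 0.344), and OTUD7B, a deubiquitinase, was lower by 0.42 at day 5 in 4 of 5 pairs.

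For each member, the probes of other genes with the most similar differences over the 15 pairs of a later day and pre-irradiation were found by the mean absolute difference, among 17139 or 17140 probes measured on every array. The 15 pairs share the 5 pre-irradiation arrays. TNFRSF1B probe 1 was closest to IFITM4P and ADAR (0.25 and 0.26 log2 units, where the median probe lay at 0.69). TNFRSF1A was closest to LAMP2 and MYO1F (0.16 and 0.17 log2 units, where the median probe lay at 0.70). TNF was closest to SLC17A5 and TMEM107 (0.21 and 0.23, median 0.62) and NFKBIA to GPD2 and ARID5B (0.20 and 0.23, median 0.75). NFKB2 was closest to CTDSP1 and SAMHD1 (both 0.14, median 0.53). NFKBIB, which encodes the inhibitor IkB-beta, was the second closest to RELA probe 1 (0.12), and for the other members no gene of the pathway lists was among the nearest 2. The nearest 2 of so many probes lie below the median probe by selection. The mean absolute change of the member itself was 0.55 for TNFRSF1B probe 1, 0.54 for TNFRSF1A and 0.44 for TNF. It was 0.58 for NFKBIA, 0.36 for NFKB2 and 0.32 for RELA probe 1.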

How the data were processed

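Whole blood RNA of irradiated macaques was measured on 20 one-color arrays, and the 20 samples were grouped and paired by the replicate numbers in their labels, since the study's methods state that comparisons were paired by animal. Deviations of same-numbered arrays from their group means correlated with a median of 0.285 (30 pairs, -0.162 to 0.654), and those of different numbers with -0.070. Deviations from a mean of 5 arrays sum to 0, so the second value follows from the first and is no separate contrast. The authors deposited the Feature Extraction intensity of each spot (version 12.0.2.2 in the file headers, 10.7 in the submitters' processing notes), after background subtraction and without normalization across arrays. A deposited log2 table of 5884 probes, with 5 of the 13 described here, served as an alternative.

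The processed signal of non-control spots without outlier flags was put on the log2 scale, averaged per probe, and reduced by the 75th percentile of all non-control spots of the array. Probes well above background on at least 5 arrays, with values in at least 4 pairs, were tested in limma 3.58.1 (R 4.3.3), with the 2 groups of each comparison in a fit of their own and the replicate number as a block. The fit was run on simulated data whose added changes were larger than any mean difference of a member probe. It therefore does not show how often changes of the size of the members would be called. On each array 50.9% to 67.3% of spots exceeded background by the scanner software's test. The lowest share was that of the pre-irradiation array of replicate 1, and the highest that of the day 5 array of replicate 3. The number of arrays limits the precision. Named genes were all member probes, at most 4 genes per list and day at a p-value under 0.05 with 1 direction in every pair, and 2 nearest genes per member. The members, lists and tests were chosen with earlier results of these data known. Alternatives were quantile normalization, median scaling, normexp (offset 50), other filters, the deposited log2 values, fits without the block, with all arrays or with slide, and leaving out each replicate. Probe positions are those of the array annotation on the human build hg19, and the match of probes to the macaque genome was not analysed here. Python 3.11.15, pandas 2.3.3 and matplotlib 3.10.9 were used.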

Additional observations from a re-analysis of the deposited data

Results flagged for a closer look

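Of 52 groups of 5 arrays (13 probes at 4 times), 1 had an array with a gap to its nearest neighbor above the 95% critical value of Dixon's test for 5 values, where chance gives about 1 in 20. RELA probe 2 had a level of -1.02 on the pre-irradiation array of replicate 1, and the other 4 arrays of the group lay between -0.18 and 0.07, so that the gap took up 0.773 of the range. RELA probe 1 was also lowest on that array (0.21), as was TNFRSF1B probe 2 (-2.58), while TNFRSF1B probe 1 (-1.06) was not.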

How the results depend on the processing

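None of the 39 member differences from pre-irradiation (13 probes, 3 days) was called under any alternative. Of the 39, 20 kept their direction throughout, among them TNF at all 3 days, TNFRSF1A at all 3 days, both TNFRSF1B probes at day 2, and NFKBIA and NFKB2 at day 30. The other 19 changed direction under at least 1 setting, and 18 of these were under 0.2 in size. The causes were not tested, and with 5 pairs small differences have no settled direction.

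With normexp background correction the differences were -0.31 (IKBKB probe 1), 0.21 (IKBKB probe 2), 0.13 (TNFAIP3), 0.20 (NFKB2) and -0.063 (RELA probe 1) at day 2, 0.0078 (IKBKB probe 2) at day 5 and -0.026 (RELA probe 1) at day 30, all reversed. The only member differences with a p-value under 0.05 under normexp were those of RELB at day 2 (-0.55), NFKB1 at day 5 (-0.27) and NFKBIA at day 30 (0.65). Median scaling reversed NFKB1 (0.011) at day 2, IKBKB probe 1 (-0.12) and RELA probe 2 (-0.053) at day 5, and NFKB1 (0.0285), RELA probe 2 (0.013) and RELB (0.069) at day 30. Over the omission of each replicate, values crossed 0 at day 2 for IKBKB probe 1 (-0.014 to 0.12), NFKB1 (-0.16 to 0.041), NFKB2 (-0.17 to 0.035), RELA probe 1 (-0.013 to 0.22) and RELB (-0.16 to 0.023). They did so at day 5 for TNFRSF1B probe 1 (-0.035 to 0.32), IKBKB probe 1 (-0.051 to 0.084), IKBKB probe 2 (-0.16 to 0.051), NFKBIA (-0.084 to 0.029), RELA probe 1 (-0.26 to 0.032) and RELA probe 2 (-0.26 to 0.18). At day 30 they did so for TNFRSF1B probe 2 (-0.17 to 0.50), IKBKB probe 2 (-0.042 to 0.15), NFKB1 (-0.15 to 0.025), RELA probe 1 (-0.13 to 0.17), RELA probe 2 (-0.35 to 0.10) and RELB (-0.079 to 0.052).

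The count of member probes with a p-value under 0.05 was 2 at day 2, 0 at day 5 and 3 at day 30 against pre-irradiation. Without the replicate block it was 1 at day 2 (TNFRSF1A) and 1 at day 30 (NFKB2). Normexp gave 1 on each of the 3 days. All arrays in 1 fit gave 4 at day 2, the deposited log2 values gave 1 at day 30, and quantile normalization or a filter on all 20 arrays gave 1 at day 5. Leaving out replicates gave 1 (without replicate 4) to 2 at day 2 and 0 (without replicate 5) to 3 at day 30. For day 30 against day 2 (3 probes) it was 1 with normexp, without the block and in either fit of all arrays, 0 in the deposited values and 1 (without replicate 1 or 3) to 4 with replicates left out. For day 30 against day 5 (1 probe) it was 2 with quantile normalization, median scaling or the stricter filter, 3 in the fits of all arrays, and 0 (without replicate 1) to 2 (without replicate 4). Day 5 against day 2 gave 0 to 1 (without replicate 2).

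Among pathway list genes, 27, 15 and 19 had a p-value under 0.05 at days 2, 5 and 30. Without the replicate block these counts were 14, 6 and 12. The deposited values gave 8 at day 5 and 9 at day 30 of fewer genes, and at day 30 leaving out replicates gave 9 (without replicate 1) to 16.

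Over all probes, calls numbered 12 at day 2, 10 between days 2 and 30, and 0 in the other comparisons. At day 2 they were 0 with quantile normalization, normexp, no filter or no replicate block, 190 with the stricter filter, 327 in the deposited values, 343 with all arrays in 1 fit, 153 with slide added, and 0 (without replicate 1, 4 or 5) to 588 (without replicate 2). At day 5 they were 9 with median scaling and 2 with slide. At day 30 they were 952 with normexp, 694 with the stricter filter, 334 in the deposited values, 121 in 1 fit and 7 with slide. Between days 2 and 30 they were 6 with normexp, 0 without a filter, 26 with the stricter filter, 57 in the deposited values, 4 without the block, 164 in 1 fit, 94 with slide, and 0 to 66 (without replicate 2) with replicates left out. Day 30 against day 5 gave 0 to 2 (without replicate 5).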
